A study of Mus musculus with 10 samples.

Results

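Among the genomic sites that STAT5B occupied in wild type mouse mammary tissue, 1050 weaker ones were also occupied by STAT5A and were still called for STAT5B in tissue without Stat5a. They were chosen by 3 measured properties: a deposited wild type STAT5B peak score below 24.4, an overlap of at least 1 bp with a wild type STAT5A peak, and an overlap of at least 1 bp with a Stat5a-null STAT5B peak. They are 15.1% of the 6976 wild type STAT5B peaks and correspond to 40.7% of the 2578 Stat5a-null STAT5B peaks and 4.002% of the 26237 STAT5A peaks, each member having its own partner peak in either list. Such sites are called kept here, in the sense that a Stat5a-null peak was listed there. Score and presence in the lists chose the members, so what follows on these properties describes them and tests nothing.

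The peaks come from chromatin immunoprecipitation followed by sequencing (ChIP-seq), which recovers the DNA bound by a protein with an antibody and counts sequenced fragments along the genome. The mammary tissue was taken on the day of parturition from mice of the mixed background 129SV::FVB/N::C57BL/6. Wild type animals carried both Stat5 genes (AABB) and Stat5a-null animals retained Stat5b (BB). The labels do not say how the Stat5a allele was made, nor how many animals went into a library. The 3 lists analysed come from 1 library each: both proteins in the wild type and STAT5B in the Stat5a-null. Differences between genotypes therefore cannot be set against replicates, and p-values are left out. Peak lists hold no expression values, so the tissue label was not checked against marker genes. In bulk tissue, fewer cells with a bound site and less binding per cell cannot be told apart.

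STAT5A and STAT5B, the products of neighbouring and very similar genes, are phosphorylated by the kinase JAK2 downstream of the prolactin receptor, pair up as dimers and bind palindromic elements known as gamma-interferon activated sequences. In mammary epithelium they drive the formation of secretory alveoli in pregnancy and the transcription of milk protein genes. STAT5A is the more abundant of these proteins in this tissue, and alveoli form poorly when it is missing. Peaks are given by position in the mm9 build; no mm9 genome or annotation was used, so they are not assigned to genes and their sequence is not shown.

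The members had modest scores in wild type tissue by construction. Their wild type STAT5B scores ran from 11 to 24.1 with a median of 19.3 (quartiles 16.7 and 21.7), against a median of 14.8 for the 4119 weaker STAT5B sites that had a STAT5A peak and no Stat5a-null peak. Scores in a list were whole multiples of 1 step, as a tag count times a constant would be, and the largest step that matched every score gave the tags per peak used here. A median member then held 81 tags (range 46 to 101). Counting error alone is sizeable at this depth: a peak of 101 tags has an exact Poisson 95% interval of 82.3 to 123, and a peak of 46 tags has one of 33.7 to 61.4. Sites on either side of the score limit are given for comparison. At the score of 24.1, just inside it, 20 of 40 sites with STAT5A were kept, and at 24.4, just outside, 19 of 33 were. Kept sites had a median STAT5A score of 98.0 at 24.1 and 99.4 at 24.4, and a median Stat5a-null STAT5B score of 16.6 and 16.4.

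Of all 6976 wild type STAT5B peaks, 34.8% had a Stat5a-null peak. Among the 5169 weaker ones on a STAT5A peak the share was 20.3% (exact Clopper-Pearson 95% interval 19.2% to 21.4%, counting error over peaks only), and these are the 1050 members. The rule itself used these values. Among the 1719 stronger ones on a STAT5A peak 78.5% (76.5% to 80.5%) were kept. Within the weaker sites the share still climbed with score. Of the 534 sites scoring 9.3 to 11.9 it was 3.18% (1.87% to 5.05%), of the 570 scoring 14.6 to 15.5 it was 12.46% (9.86% to 15.5%), and of the 525 scoring 21.7 to 24.1 it was 51.0% (46.7% to 55.4%). It rose from each of the 10 strata of score to the next, in uneven steps. A wide one lay between the 491 sites scoring 15.8 to 16.7, at 16.3% (13.1% to 19.9%), and the 475 scoring 17 to 17.9, at 26.5% (22.6% to 30.7%), whose intervals do not overlap. Another led from the 573 sites scoring 18.1 to 19.6, at 31.9% (28.1% to 35.9%), to the 486 scoring 19.8 to 21.5, at 40.7% (36.3% to 45.3%). The next led on to the 525 scoring 21.7 to 24.1. Intervals do not overlap at these steps either. The weakest stratum held 17 members.

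**Figure D1:**
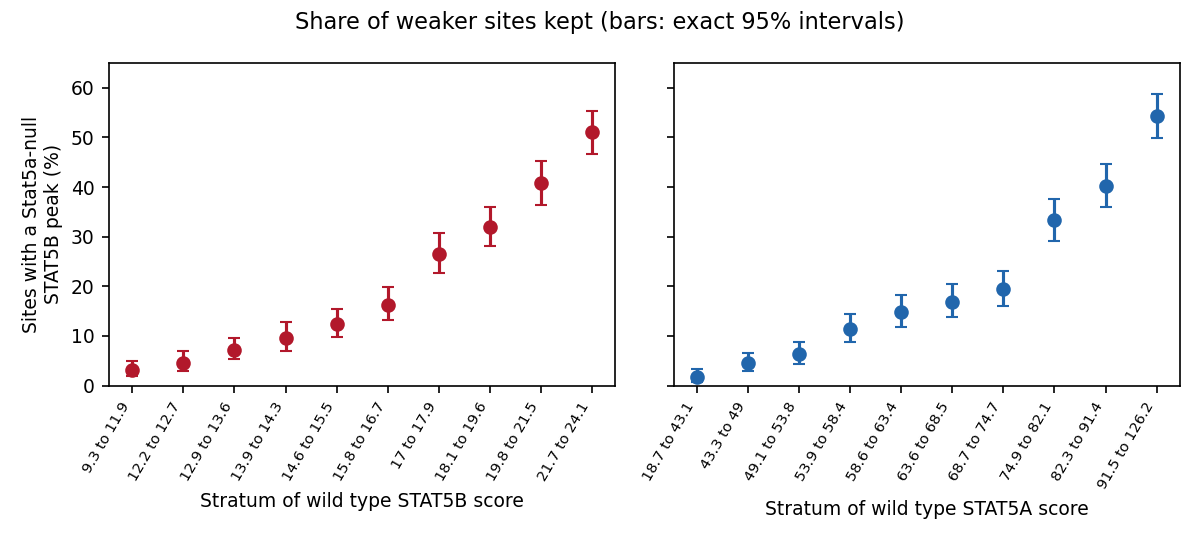
Percentage of weaker STAT5B sites with a Stat5a-null STAT5B peak (y axis) over 10 strata of the wild type STAT5B score (left, red) and of the wild type STAT5A score (right, blue). Points are shares with exact 95% intervals; they run from 3.18% to 51.0% on the left and from 1.74% to 54.3% on the right.

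STAT5A occupied the members strongly, and more strongly than the weaker sites that were not kept. The rule asked for a STAT5A peak of any height, and 96.6% (95.3% to 97.6%) of members lay on a STAT5A peak at or above the 75th percentile of that list, against 75.5% (74.1% to 76.8%) of weaker sites not kept. Members had a median STAT5A score of 80.8 (quartiles 67.0 and 92.3), or the 89.2 percentile of the STAT5A list. Weaker sites not kept had a median of 59.6 (49.5 and 72.3), or the 81.3 percentile, and the 1350 stronger kept sites a median of 127.5, or the 97.1 percentile. All 1050 members lay in the higher-scoring 50% of STAT5A peaks, as did 99.6% (99.3% to 99.7%) of weaker sites not kept, so that this did not set members apart. The lowest, at chr2:73253974-73254225, had a STAT5A score of 37.6 (219 tags), which ranked 9175 in that list.

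**Figure D2:**
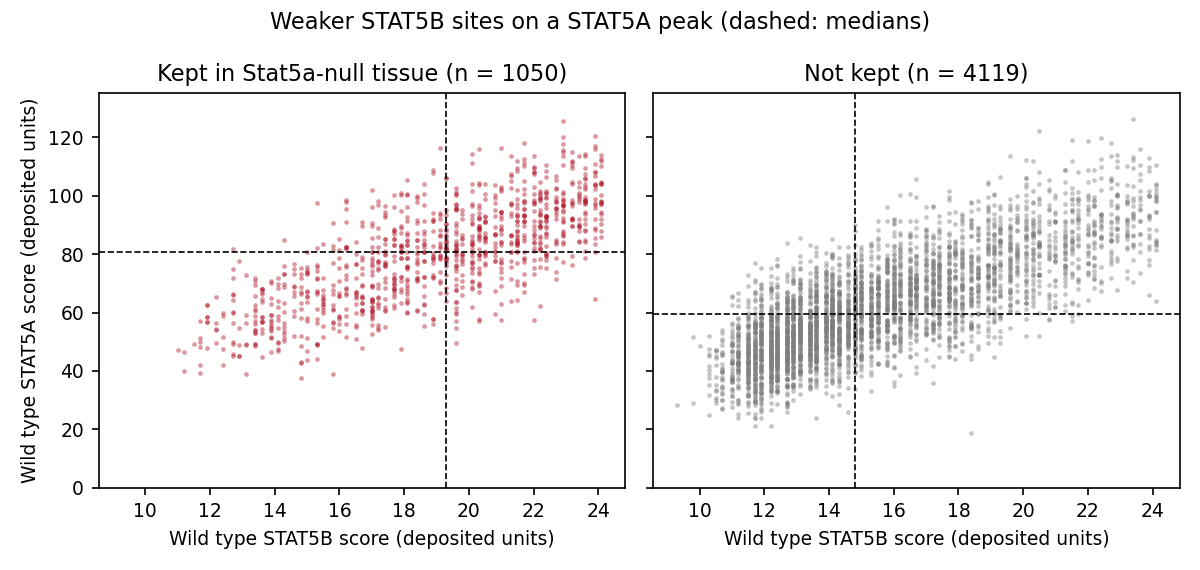
Wild type STAT5A score (y axis) against wild type STAT5B score (x axis), in deposited units, for the 1050 weaker sites kept in Stat5a-null tissue (left) and the 4119 not kept (right); each point is 1 site and dashed lines are medians. Both clouds slope upward and overlap, and the kept one is shifted to higher values of both scores, with STAT5A medians of 80.8 and 59.6.

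Most of this gap in STAT5A height was absent among sites of like STAT5B score, and a small part remained. Within 10 strata of the wild type STAT5B score, the median STAT5A percentile of members was above that of sites not kept in 10 of 10 strata, by 0.415 to 5.56 percentile points. The median of these differences was 2.12 points, against 7.86 points with no strata. In the stratum scoring 12.2 to 12.7, the 23 members had a median STAT5A percentile of 79.7 and the sites not kept one of 74.1. In the stratum scoring 21.7 to 24.1, the values were 92.6 for 268 members and 91.6. The quartile ranges of members and of sites not kept overlapped in each stratum. Strata are ranges, and sites can differ in score inside one. When each of the 56 distinct scores of members was taken as its own stratum, a comparison added after the data were seen, members were higher at 48 scores and lower at 8, with a median difference of 1.18 points. At the 47 of these scores with at least 10 sites of each kind, which leave out 38 members, all scoring 11 to 13.1, members were higher at 42 and lower at 5, with a median difference of 1.16 points. Cut into 10 strata, the sites at these 47 scores gave 1.22 points. Sites are not replicates of a condition, and both scores come from wild type tissue, so this describes these libraries and has no test. Scores also carry counting error, so sites of equal STAT5B score can differ in STAT5B binding. Whether the remaining gap is separate from STAT5B binding was not tested.

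**Figure D3:**
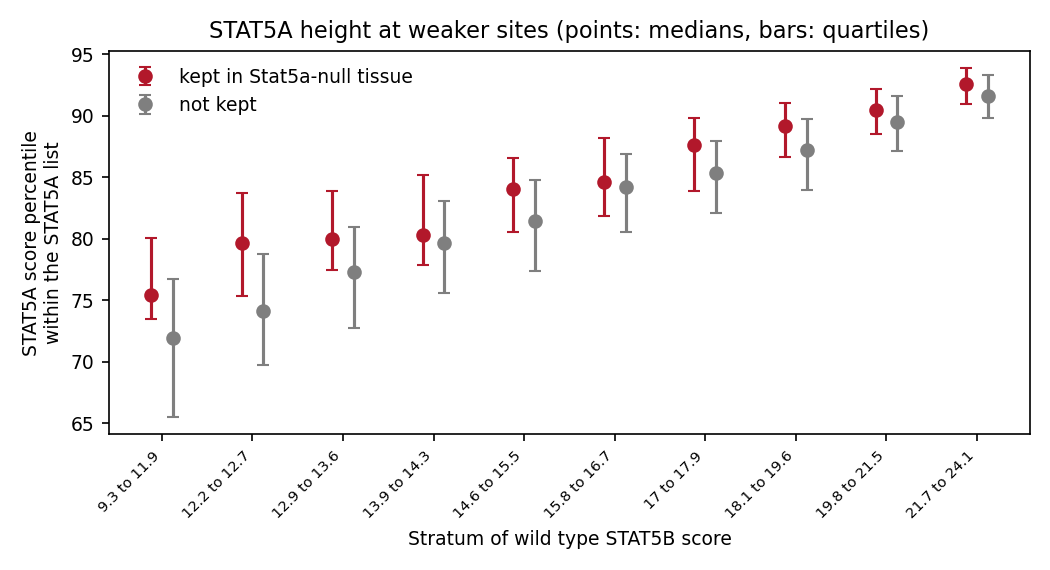
Median STAT5A score percentile within the STAT5A list (y axis, bars are quartiles) over 10 strata of wild type STAT5B score (x axis), for weaker sites kept in Stat5a-null tissue (red) and not kept (grey). The kept sites have the higher median in 10 of 10 strata, while the quartile ranges overlap.

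The share of weaker sites kept also followed the STAT5A score. It was 1.74% (0.801% to 3.29%) of the 516 sites with STAT5A scores of 18.7 to 43.1, 14.8% (11.8% to 18.2%) of those with 58.6 to 63.4, and 54.3% (49.9% to 58.7%) of the 519 with 91.5 to 126.2. Across these strata of STAT5A score the median STAT5B score rose as well, from 12.2 to 22. The weaker sites were then cut into 3 parts by either score. Among sites with STAT5B scores of 17.7 to 24.1, 45.02% (42.3% to 47.7%) were kept where the STAT5A score was 72.5 or more, 25.5% (21.2% to 30.1%) where it was 55.5 to 72.3, and 3 of 54 where it was 55.3 or less. Median STAT5B scores were 20.8, 18.9 and 18.4 in the same order, so the STAT5B score was not held equal. Among sites with STAT5B scores of 9.3 to 13.9, 10.6% (7.997% to 13.7%) were kept at the middle STAT5A scores and 3.49% (2.54% to 4.67%) at the lowest. Only 42 of these had a STAT5A score of 72.5 or more, and 4 of them were kept. Median STAT5B scores in this range were 12.4, 12.9 and 13.1, from the lowest STAT5A scores to the highest.

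The members with the highest STAT5A scores stood lower in the STAT5B lists. The rule holds every wild type STAT5B score below 24.4, so a high STAT5A score beside a modest STAT5B score is partly built in. The highest was chr1:164224670-164224921, with a STAT5A score of 125.6 that ranked 809 of 26237. Its wild type STAT5B score was 22.9 (96 tags) and its Stat5a-null score 14.3 (68 tags), which ranked 1720 of 2578. The next, chr6:7059426-7059677, had a STAT5A score of 120.4, a wild type STAT5B score of 23.9 and a Stat5a-null score of 18.7. The next after it, chr4:15234796-15235047, had scores of 120.2, 22.9 and 13. The 5 members highest in STAT5A ranked between 941 and 2005 in the Stat5a-null list. Members cut into 3 parts by STAT5A score had median Stat5a-null percentiles of 21.3, 31.1 and 37.3, from the lowest part to the highest.

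In Stat5a-null tissue the members were mostly low in their list. Their Stat5a-null STAT5B scores ran from 9.7 to 33.7 with a median of 13.9 (quartiles 12.4 and 16.4), or 66 tags, at the 29.3 percentile of that list. Stronger kept sites had a median of 21 (100 tags) at the 70.8 percentile. Of the members, 22.7% (20.2% to 25.3%) scored above the median of the Stat5a-null list, against 74.96% (72.6% to 77.3%) of stronger kept sites. Weaker members accounted for 69.3% (63.1% to 75.1%) of the lowest-scoring decile of Stat5a-null peaks, 53.8% of the fifth decile from the bottom and 2 of 256 peaks in the highest decile. Wild type and Stat5a-null STAT5B scores were only loosely related among members (Spearman's rho 0.28, Pearson's r 0.29, across 1050 sites), with rho 0.61 among the 1350 stronger kept sites. STAT5A and Stat5a-null scores gave the same rho of 0.28 among members, while the 2 wild type scores gave 0.73. Members cover a narrow range of scores, and the sites of a list share 1 library, so these are descriptions across sites.

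The ratio of Stat5a-null to wild type score was set side by side between classes of sites, since an unknown scale factor of either library multiplies every ratio alike. The median ratio was 0.77 (quartiles 0.66 and 0.91) for members and 0.64 (0.53 and 0.76) for stronger kept sites. Among stronger kept sites its median was much the same at each level of score: 0.65 for scores of 24.4 to 29.1, 0.63 for 29.4 to 37 and 0.64 for 37.3 to 124.2. Among members it was 0.68 for the 344 scoring 21 to 24.1, 0.74 for the 354 scoring 17.7 to 20.8 and 0.88 for the 352 scoring 11 to 17.4. The Stat5a-null list ends at a score of 8.2, and no member scored under 9.7 in it, so a weak site is listed only with a high ratio. The lowest ratio was 0.60 among the members scoring 11 to 17.4 and 0.45 among those scoring 21 to 24.1. The rise of the ratio toward weak sites is therefore bound up with the rule, and the ratio of weaker sites not kept is unknown.

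**Figure D4:**
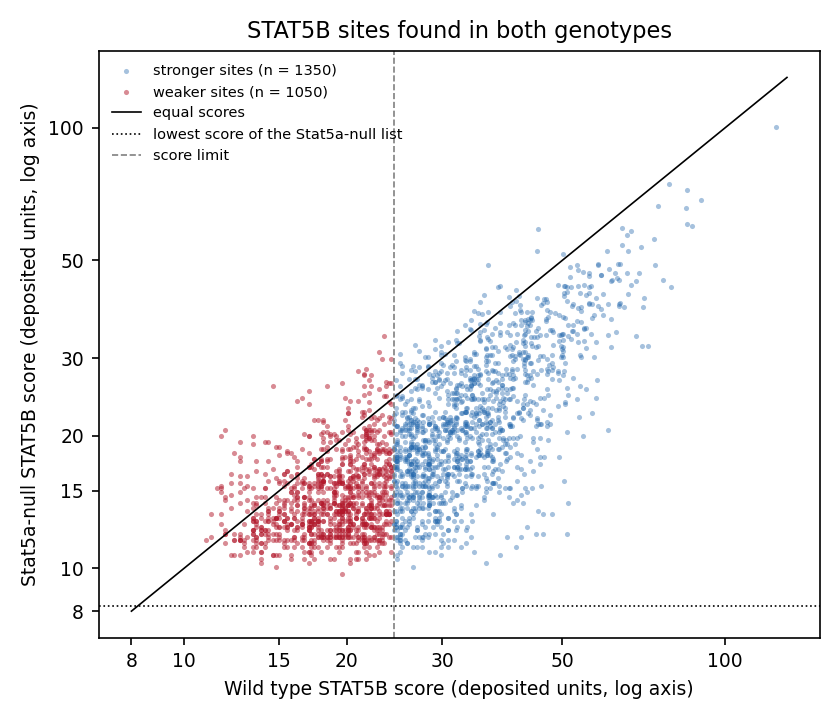
Stat5a-null STAT5B score (y axis) against wild type STAT5B score (x axis), both on log axes in deposited units, for the 1050 weaker (red) and 1350 stronger (blue) sites with STAT5A found in both genotypes. The solid line marks equal scores, the dotted line the lowest score of the Stat5a-null list (8.2) and the dashed line the limit of 24.4; most members lie below the line of equal scores and crowd above the floor.

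A minority of members scored higher in Stat5a-null tissue than in wild type tissue. This was so for 148 of 1050 members (14.1%, 12.0% to 16.3%), for 48 of 1350 stronger kept sites (3.56%, 2.63% to 4.69%), and for 8.08% of all 2426 wild type STAT5B peaks found in both genotypes. Of the 148, 89 were among the 352 members scoring 11 to 17.4. These counts depend on the relative scale of the STAT5B libraries, which is unknown. The rule also favours high ratios among members, since a weak site is listed only if it clears the floor of the Stat5a-null list. The contrast with stronger kept sites is therefore bound up with the rule and tests nothing. By rank within each list, 197 members (18.8%, 16.4% to 21.3%) stood at a higher percentile of the Stat5a-null list than of the wild type list, and the median change was a drop of 21.0 percentile points. Among stronger kept sites, 109 (8.07%, 6.68% to 9.66%) stood higher, and the median change was -17.3 points. Stronger kept sites are high in the wild type list by the score limit and have less room to rise, so the shares by rank are bound up with the rule too. Percentiles of the wild type and Stat5a-null lists are also not like for like. Of sites on a STAT5A peak, 20.3% of weaker and 78.5% of stronger ones were kept. Weaker sites therefore stand lower in the Stat5a-null list even with their order unchanged, and the drop is not read as a loss of standing.

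The largest rise in rank was at chr13:67379434-67379685. Its wild type STAT5B score was 11.9 (50 tags, Poisson interval 37.1 to 65.9), which ranked 6432 of 6976, and its Stat5a-null score was 20.6 (98 tags, 79.6 to 119), which ranked 786 of 2578. Its STAT5A score of 62.5 stood at the 82.7 percentile. The second, chr12:85586783-85587034, had scores of 11.7 and 20 in the 2 STAT5B lists and, with a STAT5A score of 39.3, was also among the 5 members lowest in STAT5A. At chr8:46990923-46991174, the third, the ratio of Stat5a-null to wild type score was 1.77, the highest of all members (95% interval 1.30 to 2.46 for counting error, given the steps).

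The member with the highest Stat5a-null score was chr6:57485303-57485554, with a score of 33.7 (160 tags, 136 to 187) that ranked 195. Its wild type STAT5B score was 23.4 (98 tags) and its STAT5A score 113.5. The next was chr1:195754920-195755171, at 30.9 in Stat5a-null and 22.9 in wild type tissue. Both lay close to the score limit in wild type tissue, and 195 was the highest rank of any member in the Stat5a-null list. At the other end, chr16:88234778-88235029 had the largest fall in rank, from a wild type score of 24.1 (101 tags) to a Stat5a-null score of 10.9 (52 tags, 38.8 to 68.2), which ranked 2514. It lay on a STAT5A peak of 97.9. A similar contrast was found at chr11:31262765-31263016, with scores of 22.9 and 10.9 and a STAT5A score of 101.2. The 5 members with the largest falls had STAT5A scores of 92.4 to 101.7, whereas the 5 with the largest rises had STAT5A scores of 39.3 to 76.6. A site high in the wild type list has more room to fall in rank and one low in it more room to rise, and the 2 wild type scores rise together among members (rho 0.73). Rises and falls are also between lists of unlike make-up, so they only describe these sites.

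The weakest members in wild type tissue were close to the bottom of the wild type list. The lowest, chr4:129188512-129188763, had a wild type STAT5B score of 11 (46 tags), a Stat5a-null score of 11.6 (55 tags) and a STAT5A score of 47.1 (274 tags). The next, chr10:70213867-70214118, had scores of 11.2, 11.8 and 46.4. The site chr5:117610552-117610803 stood out among the 5 lowest, with a wild type score of 11.5 and a Stat5a-null score of 15.2 (72 tags). All of the 5 had a ratio of Stat5a-null to wild type score above 1. The Stat5a-null list ends at a score of 8.2, and the lowest member scored 9.7 in it. This limits how low the ratio of so weak a site can be, though values below 1 were possible.

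The peaks of the 3 lists coincided closely at the members. From the centre of the wild type STAT5B peak, the Stat5a-null centre was a median of 20 bp away (10 bp and 37 bp at the quartiles) and the STAT5A centre 17 bp (8 bp and 28 bp). At stronger kept sites these medians were 19 bp and 16 bp, and at weaker sites not kept the distance to STAT5A was 21 bp. All 3 centres fell within 50 bp at 842 members (80.2%, 77.6% to 82.6%) and at 81.3% (79.2% to 83.4%) of stronger kept sites. These intervals overlap. Near misses were rare: of the 4119 weaker sites not kept, 6 had a Stat5a-null peak centre within 500 bp without overlap, and 53 had one within 1000 bp.

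Most members had no other wild type STAT5B peak nearby, in much the same share as weaker sites not kept, though the kind of neighbour differed. STAT5A peaks were closer set: only 34.4% (31.5% to 37.3%) of members had none but their own within 12500 bp. Another wild type STAT5B peak lay within 12500 bp of 344 members (32.8%, 29.9% to 35.7%), against 33.5% (32.1% to 34.99%) of weaker sites not kept, 47.3% (44.6% to 49.96%) of stronger kept sites and 37.1% of all wild type STAT5B peaks. The interval of members overlapped that of weaker sites not kept and lay below that of stronger kept sites. A stronger kept site lay within that distance of 114 members (10.9%, 9.04% to 12.9%) and of 9.18% (8.31% to 10.1%) of weaker sites not kept. Seen the other way, 23.2% (19.5% to 27.2%) of the 492 weaker sites near a stronger kept site were kept, and 20.01% (18.9% to 21.2%) of the 4677 others. Within the strata of score the difference between near and distant sites was positive in 5 of 10 and negative in the rest. Dense STAT5A surroundings, with 5 or more STAT5A peaks within 12500 bp, were found for 3.71% of members and 3.71% of weaker sites not kept.

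Another member lay within 12500 bp of 7.05% (5.57% to 8.77%) of members. A member lay that close to 5.10% (4.45% to 5.81%) of weaker sites not kept and 9.26% (7.77% to 10.9%) of stronger kept sites. Joining members across gaps of at most 12500 bp left 976 of them single and gave 34 groups of 2 and 2 groups of 3. The group at chr8:24301917-24304836 packed 3 members into 2.92 kb, with wild type STAT5B scores of 15.3, 14.3 and 20.5, Stat5a-null scores of 13.3, 15.8 and 17.5 and STAT5A scores of 49.1, 55.1 and 84.2. The group at chr7:105300929-105307350 spanned 6.42 kb, with wild type STAT5B scores of 17, 20.1 and 23.6, Stat5a-null scores of 12.4, 20.6 and 12 and STAT5A scores of 61.8, 104.1 and 92.1. In the first group the order of the 3 sites by score differed between genotypes, and in the second the highest wild type site was the lowest in Stat5a-null tissue. The sites that swapped in the first group held 64 and 60 tags in wild type and 63 and 75 in Stat5a-null tissue. Their Poisson intervals overlap in either genotype. In the second group the lowest Stat5a-null site held 57 tags and the next lowest 59. Neither group contained any other peak of the 3 lists. The closest group of 2 was at chr2:44077674-44078676, where wild type STAT5B scores were 22.2 and 18.1 and Stat5a-null scores 15.6 and 16.2.

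Members were spread over all autosomes. The 19 autosomes had between 0.315 members per Mb (chromosome 5) and 0.701 (chromosome 19), with a median of 0.387, and chromosome 11 had 0.665. On the X chromosome, 6.31% of the placed genome, lay 10 of 1047 placed members (0.955%, 0.459% to 1.75%). The X carried 1.55% (1.20% to 1.98%) of weaker sites not kept and 0.370% (0.1204% to 0.862%) of stronger kept sites. The share of weaker sites that was kept ran from 16.7% (12.51% to 21.7%) on chromosome 13 to 25.7% (21.0% to 30.9%) on chromosome 11 among autosomes, with a median of 19.7%, and was 13.5% (6.68% to 23.45%) on the X. Chromosome 11 alone had an interval that did not include the 20.3% of all weaker sites, by a small margin, among 20 chromosomes compared.

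**Figure D5:**
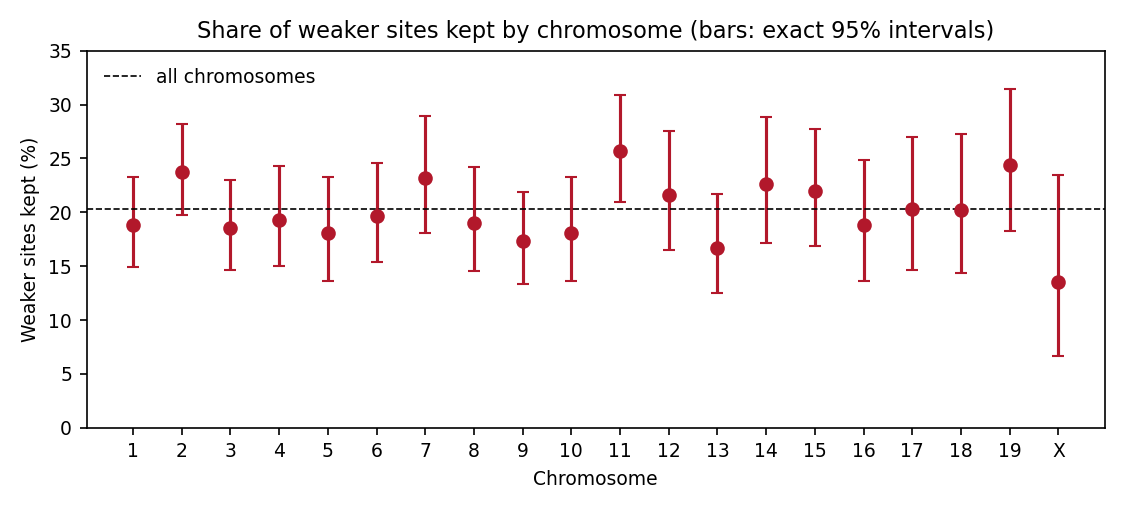
Percentage of weaker STAT5B sites with a Stat5a-null STAT5B peak (y axis) on each chromosome (x axis), with exact 95% intervals; the dashed line is the share over all chromosomes. Values run from 13.5% on the X to 25.7% on chromosome 11, and nearly all intervals include the line.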

How the data were processed

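Peak lists of 3 of the 10 samples were used, and the other 7 were not analysed here. CASAVA, BWA, HOMER and the mm9 build are named in the submitters' processing notes; neither versions nor controls and thresholds of the peak calls are stated in the sources used here. Each list gives, per peak, a signal deposited by the authors whose scale is not stated (the score). Scores were whole multiples of a step within a tolerance of 0.05 (steps of 0.155 to 0.40 searched): 0.172 for STAT5A, 0.239 for wild type and 0.210 for Stat5a-null STAT5B. These are the largest steps that matched; smaller ones matched the STAT5B lists too, so tags per peak depend on this choice. Total reads are unknown.

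Starts were read as 0-based and are printed 1-based. Of several overlapping peaks the nearest by centre was the partner. Percentiles and ranks are within a list, where percentiles run from the lowest score and rank 1 is the highest. Strata are of about equal size. Gene positions and STAT motifs, planned for an mm9 reference, were not run. Chromosome lengths came from GenomeInfoDb 1.38.1. The work used Python 3.11.15 (scipy 1.17.1, pandas 2.3.3, numpy 2.4.6, matplotlib 3.10.9). The scripts were tested on simulated data, and bedtools 2.31.1 counted the same 1050 members.

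The members, measures and rule for named sites were chosen with earlier results of these data known. That rule names the 5 members highest or lowest in wild type STAT5B and in STAT5A, the 5 highest in Stat5a-null STAT5B, the 5 with the largest rise or fall in percentile, and the 3 groups with the most members (the shortest first among equals). Examples are printed.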

Additional observations from a re-analysis of the deposited data

How the results depend on the processing

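Of 20 alternatives to 8 values, 13 stayed within the main value's 95% interval (within 1.5 times for the count of members) and 7 moved. Requiring 50% of both peaks, centres within 100 bp, placed chromosomes or the higher-scoring 50% of STAT5A peaks gave between 1032 and 1050 members. With the higher-scoring 50% of the Stat5a-null list, 238 members and 4.60% of weaker sites were left, fewer by construction. Calling sites weaker below the median of the wild type list gave a kept share of 10.3%. The gap in STAT5A percentile was 7.86 points with no strata, 1.95 with 5 strata, 1.18 with each score of a member as a stratum and 1.16 with only the scores that had at least 10 sites of each kind. Neighbours within 5 kb and 25 kb were found for 20.9% and 44.9% of members. The X share of members was 0.151 times that of placed sequence and 0.832 times that of all wild type STAT5B peaks. Leaving out a replicate was not possible with single libraries. Total reads are unknown, so what depth limits was not tested.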

Other observations

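Of the 1050 members, 3 lay on unplaced sequence, 2 of them within 9.88 kb of each other on the unplaced part of chromosome 1. Of the 4119 weaker sites not kept, 3 lay on unplaced sequence, and 0 of the 1350 stronger kept sites did, which allows a share of up to 0.222% (3 counts of the total, for counting error only). The number of STAT5A peaks within 12500 bp of a member, its own included, had a median of 2 and a highest value of 8. For 34.4% (31.5% to 37.3%) of members no STAT5A peak other than their own lay within that distance, against 35.4% (33.9% to 36.9%) of weaker sites not kept and 29.3% (26.8% to 31.8%) of stronger kept sites.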
